A study of Homo sapiens with 39 samples.

Results

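GSK-J4 is a cell-permeable inhibitor of the histone H3 lysine 27 demethylases KDM6A and KDM6B, enzymes of the Jumonji family that need iron and 2-oxoglutarate. Its early effect on the transcriptome was measured by RNA sequencing in JJN3, a human multiple myeloma cell line, after 3 h. The comparison took the 3 libraries labelled GSK-J4 at 3 h (sample numbers 19 to 21) and the 3 libraries labelled DMSO, the solvent control, at 3 h (13 to 15), which are 6 of the 39 libraries of the series. Of 57773 gene identifiers in the count table, 14460 passed a filter on low counts and were tested.

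The remaining libraries are labelled T0 or are DMSO, GSK-J4 and zinc sulfate (ZnSO4) treatments of the same line at 1, 3, 6 and 24 h, with 3 libraries per group. Of these, the GSK-J4 and DMSO libraries at 1 h and 6 h and the ZnSO4 libraries at 3 h serve below to place the response at 3 h. No label names a genetic change in any group, all were grown in RPMI with 10% FCS, and every value rests on 1 cell line. The labels state no dose. The labels do not say whether the libraries of a group came from separate cultures, so p-values cover only the variation among these libraries, possibly technical.

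As background, metallothioneins are small cysteine-rich proteins that bind zinc and copper. The zinc sensor MTF1 switches on their genes, and that of the zinc exporter SLC30A1, through metal response elements in their promoters. ATF4 is a transcription factor that is translated when eIF2alpha is phosphorylated under amino acid shortage, endoplasmic reticulum stress or other stress. It drives genes for amino acid supply, tRNA charging and stress signalling through C/EBP-ATF elements. Plasma cells, from which myeloma arises, secrete much protein and depend on these stress routes.

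The 6 libraries held 4347745 to 9716602 counts. Depth differed between the groups without overlap, with 4347745 to 6357627 counts in DMSO and 8005655 to 9716602 in GSK-J4 libraries, and the part of depth in the results was not tested. The share of counts from mitochondrially encoded genes was 3.56% to 3.57% in DMSO and 3.11% to 3.21% in GSK-J4 libraries. Markers of plasma cells summed to 2240 to 2267 CPM (counts scaled to library size) in DMSO and 2213 to 2337 CPM in GSK-J4 libraries, and all 8 of them (SDC1, TNFRSF17, IRF4, PRDM1, XBP1, MZB1, CD38 and POU2AF1) were detected. Of 23 matched markers of other cell types, 9 were abundant enough to test, 0 passed with edgeR or DESeq2 (3 had an unadjusted p under 0.05), and KRT19, CD3D and CD22 had no count in the 6 libraries.

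At 3 h, 344 of the 14460 genes (2.38%) passed at an adjusted p under 0.05, with 210 higher (1.45%) and 134 lower (0.927%) in GSK-J4. Changes of at least 2-fold were fewer, with 37 genes higher (0.256%) and 11 lower (0.0761%), and 10 of those 37 were metallothionein genes or pseudogenes. The values of the 3 GSK-J4 and 3 DMSO libraries did not overlap for 209 of the 210 higher and all 134 lower genes. Among all genes tested, 1622 (11.2%) were higher and 1616 (11.2%) lower without overlap. Across all genes the median log2 fold change was 0.004, and 1897 genes had an unadjusted p under 0.05. The test was edgeR's quasi-likelihood F test with Benjamini-Hochberg adjustment over all genes. When only the 6 libraries were fitted, 1072 genes passed, 340 of the 344 among them.

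**Figure D1:**
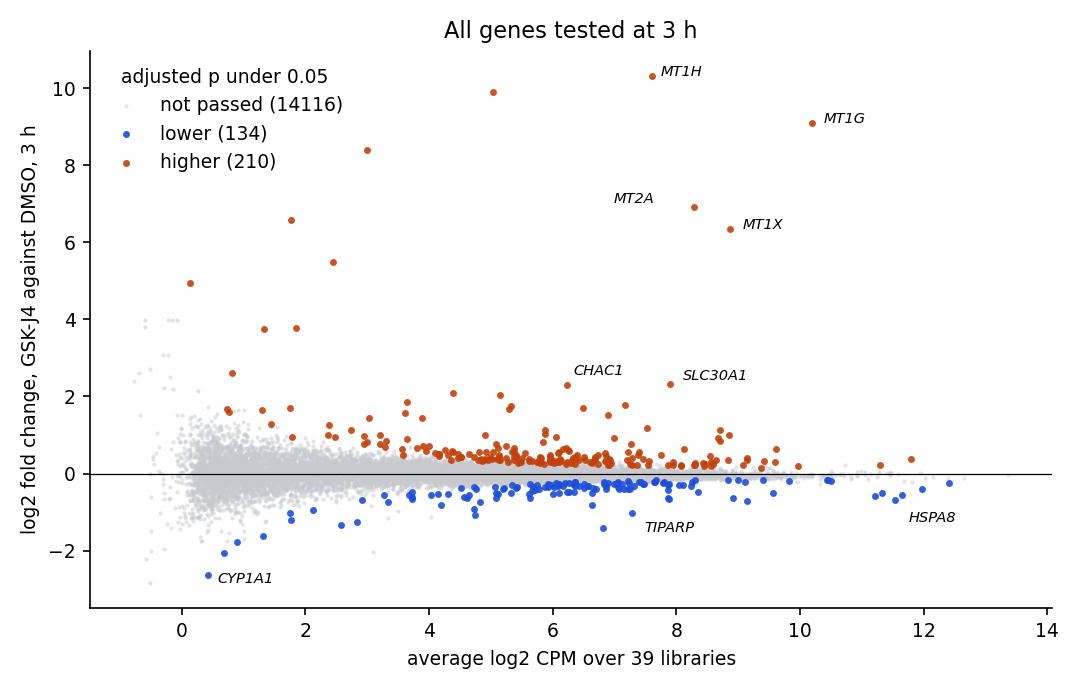
Log2 fold change of GSK-J4 against DMSO at 3 h (vertical axis) against the average log2 CPM over the 39 libraries (horizontal axis) for the 14460 genes tested, with the 210 higher and 134 lower genes coloured. Metallothionein genes stand far above the other genes; the fitted fold changes of those with 3 or fewer counts in DMSO depend on the model's prior count.

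The response was led by zinc handling genes. Of 8 metallothionein genes tested, 7 rose and 0 fell, with a median log2 fold change of 7.66 as fitted and 6.53 when the 5 genes with 3 or fewer counts in DMSO are set to the bound or ratio that their counts give. Libraries of the 2 groups stood apart by more than an order of magnitude for each of the most abundant members. MT1X was at 6.3, 6.92 and 8.53 CPM in DMSO and 568, 602 and 559 CPM in GSK-J4, an 80.8-fold rise (log2 fold change 6.34 ± 0.13, adjusted p = 9.4e-46). MT2A was at 2.3, 2.47 and 2.02 CPM in DMSO and 279, 298 and 266 CPM in GSK-J4 (log2 fold change 6.93 ± 0.18, adjusted p = 8.2e-40). MT1G was at 0.768, 2.47 and 1.35 CPM in DMSO and 849, 881 and 799.6 CPM in GSK-J4 (log2 fold change 9.09 ± 0.29, adjusted p = 6.7e-36). In bulk libraries, more cells with a transcript and more of it in each cell cannot be told apart.

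The other metallothioneins were close to absent in DMSO. MT1H had 2 counts over the 3 DMSO libraries and 4915 over the 3 GSK-J4 libraries, a ratio of 1490 with a 95% counting interval of 411 to 12300 (adjusted p = 1e-39). MT1E had 0 counts in DMSO and 521 in GSK-J4, at least 105-fold higher when the floor of 3 counts over the group stands for 0. MT1F had 0 and 181 counts, at least 36.5-fold higher, and MT1M had 1 and 97 counts, a ratio of 58.7 (10.3 to 2340). Intervals and floors cover counting error only. MT1B, with 0 and 4 counts, did not pass (adjusted p = 0.44), and MT1A, MT3 and MT4 were too low to test. The related loci MT1HL1 (0 and 51 counts, at least 10.3-fold) and the pseudogene MT1P1 (2 and 51 counts, ratio 15.4, 4.06 to 131) rose as well, as did the pseudogene MT1XP1. Metallothionein genes are very similar in sequence, so reads may be divided among them and single-locus values are uncertain.

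The promoters of MT1X, MT2A and SLC30A1 are shown because these 3 genes rose from counts well above 0 in DMSO and the metal response element is a well described control sequence of all 3. Each is the 300-base window from RefSeq (GRCh38.p14), 250 bases before to 50 after the annotated start, in lower case, with matches to the core TGCACNC or TGCGCNC on either strand in capitals. The counts themselves were made on hg19, and promoters were matched by symbol. MT1X lies at chr16:56682220-56682519 on the plus strand, MT2A at chr16:56608334-56608633 on the plus strand and SLC30A1 at chr1:211579112-211579411 on the minus strand.
MT1X: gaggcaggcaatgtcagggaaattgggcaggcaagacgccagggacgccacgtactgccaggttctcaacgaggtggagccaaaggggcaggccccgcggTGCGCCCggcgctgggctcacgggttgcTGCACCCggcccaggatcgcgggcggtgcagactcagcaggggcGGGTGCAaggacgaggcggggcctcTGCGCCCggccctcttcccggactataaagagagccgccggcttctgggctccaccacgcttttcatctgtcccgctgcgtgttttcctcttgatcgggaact
MT2A: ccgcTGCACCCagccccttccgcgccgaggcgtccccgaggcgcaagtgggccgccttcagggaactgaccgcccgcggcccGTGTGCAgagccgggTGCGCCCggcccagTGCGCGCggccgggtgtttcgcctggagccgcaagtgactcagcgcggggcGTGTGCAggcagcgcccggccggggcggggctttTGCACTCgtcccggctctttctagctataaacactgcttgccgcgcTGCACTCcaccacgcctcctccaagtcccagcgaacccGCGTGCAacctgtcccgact
SLC30A1: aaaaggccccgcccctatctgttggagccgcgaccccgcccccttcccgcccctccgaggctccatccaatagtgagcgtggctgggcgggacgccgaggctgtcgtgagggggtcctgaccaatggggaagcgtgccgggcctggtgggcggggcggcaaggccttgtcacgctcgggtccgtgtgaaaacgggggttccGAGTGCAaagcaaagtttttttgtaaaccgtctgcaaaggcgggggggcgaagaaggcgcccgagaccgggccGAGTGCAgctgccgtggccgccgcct

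MT1X held 4 matches, the first at base -150 and the last beginning at base -53 from the start. MT2A held 8 and SLC30A1 held 2. All 4 tested metallothionein genes with a promoter in the table (MT1B, MT1H, MT1X and MT2A) held at least 2 matches, against 12.6% of the 9984 tested genes with a promoter. At least 2 were held by 10.9% of the higher and 11.1% of the lower genes with a promoter. A single match is common: 35.9% of 156 higher genes, 42.4% of 99 lower genes and 39.4% of tested genes held at least 1, and 29.3% of all 27305 promoters of the table. A match describes letters in a window and is not a binding site.

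Zinc transporters changed at single members. SLC30A1, which exports zinc across the plasma membrane, was at 64, 75.7 and 71.6 CPM in DMSO and 368, 340.5 and 354 CPM in GSK-J4 (log2 fold change 2.33 ± 0.07, adjusted p = 9.3e-36), and no GSK-J4 library came near a DMSO library. SLC30A2, a vesicular zinc transporter, had 0 counts in DMSO and 16 in GSK-J4, at least 3.23-fold higher (adjusted p = 0.025). That call was lost without replicate 1 or 2 of GSK-J4 and without any 1 of the DMSO replicates (adjusted p = 0.075 to 0.14). The other 5 of 7 SLC30 genes tested did not pass, with log2 fold changes of -0.38 to 0.08. Of 11 SLC39 importers tested, SLC39A10, which brings zinc into B cells, was the member that fell, from 22.9, 22.1 and 27.2 CPM in DMSO and 13.9, 12.8 and 13.4 CPM in GSK-J4 (log2 fold change -0.83 ± 0.11, adjusted p = 1.5e-07). The other 10 lay between -0.24 and 0.07 on the log2 scale and did not pass.

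**Figure D2:**
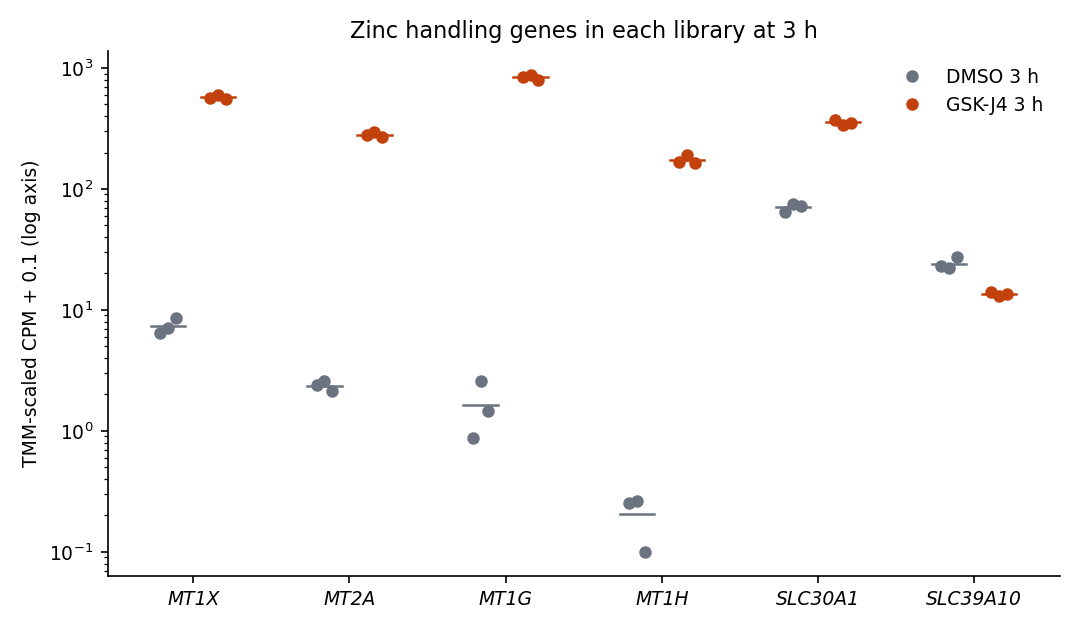
TMM-scaled CPM plus 0.1 (log axis) of 6 zinc handling genes in each DMSO and GSK-J4 library at 3 h; points are libraries and lines are group means. The 3 GSK-J4 libraries lie above the 3 DMSO libraries for the 4 metallothioneins and SLC30A1, and below them for SLC39A10.

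A set of transcription factors of the ATF4 arm rose. Of 9 tested, 8 rose and 0 fell, with a median log2 fold change of 0.49 against 0.004 over all genes. The gene lists were chosen with earlier results of these data known, so their counts are descriptions. DDIT3 (CHOP), a factor tied to death under prolonged stress, was at 5.53, 4.78 and 6.29 CPM in DMSO and 22.9, 23.3 and 23.1 CPM in GSK-J4 (log2 fold change 2.08 ± 0.15, adjusted p = 7.8e-18). ATF3, an early repressor and activator of the same family, was at 7.68, 6.76 and 7.86 CPM in DMSO and 30.7, 30.6 and 29.5 CPM in GSK-J4 (log2 fold change 2.03 ± 0.15, adjusted p = 2.4e-17). Both were about 4-fold higher, with tight agreement among the GSK-J4 libraries. ATF4 itself, whose activity is set mainly at translation, was at 410.2, 399.6 and 409 CPM in DMSO and 509, 531 and 514 CPM in GSK-J4 (log2 fold change 0.35 ± 0.05, adjusted p = 9.6e-07). CEBPB, a bZIP partner, was at 31.5, 28.7 and 41.1 CPM in DMSO and 49.5, 50.7 and 56.7 CPM in GSK-J4 (log2 fold change 0.66 ± 0.11, adjusted p = 8.5e-06). TRIB3, a pseudokinase that restrains ATF4 signalling, was at 89.7, 88.2 and 84.4 CPM in DMSO and 124, 124 and 119 CPM in GSK-J4 (log2 fold change 0.49 ± 0.06, adjusted p = 2.5e-08). CEBPG and JDP2 rose by 0.32 and 0.76 on the log2 scale. NFIL3, a bZIP repressor, passed at 0.21 (adjusted p = 0.034) and lost its call in all 6 fits that left out 1 library (adjusted p = 0.085 to 0.15). Of the 10 genes for eIF2alpha kinases and phosphatase subunits, PPP1R15A alone passed, and EIF2AK3 (PERK) was at a log2 fold change of 0.10 ± 0.11 (adjusted p = 0.78). PPP1R15A, the stress-inducible phosphatase subunit, was at 29, 20.1 and 26.9 CPM in DMSO and 29.2, 41 and 39.9 CPM in GSK-J4 (log2 fold change 0.55 ± 0.14, adjusted p = 0.014). Its call was lost without replicate 2 or 3 of GSK-J4 or replicate 2 of DMSO (adjusted p = 0.094 to 0.25).

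Among stress effectors and secreted factors, 10 of 20 tested rose and 1 fell (median 0.46). PPP1R15A, which also counts above and lost its call when single libraries were left out, is among the 10. CHAC1, an enzyme that degrades glutathione, was at 55.9, 50.1 and 42 CPM in DMSO and 255, 242 and 242 CPM in GSK-J4 (log2 fold change 2.30 ± 0.14, adjusted p = 6.7e-21), the largest rise by log2 fold change outside the zinc genes among called genes with an average log2 CPM of at least 1. SESN2 and DDIT4 both damp mTORC1. SESN2 was at 44.1, 45.3 and 40.9 CPM in DMSO and 145, 149 and 133 CPM in GSK-J4 (log2 fold change 1.71 ± 0.09, adjusted p = 1.2e-23). DDIT4 was at 104, 95.3 and 97 CPM in DMSO and 351, 334 and 324 CPM in GSK-J4 (log2 fold change 1.77 ± 0.12, adjusted p = 4.8e-19). STC2, a secreted glycoprotein, was at 107, 99.7 and 92.3 CPM in DMSO and 295, 288 and 286 CPM in GSK-J4 (log2 fold change 1.53 ± 0.07, adjusted p = 5.2e-26), and VEGFA, the angiogenic growth factor, at 132, 125 and 142 CPM in DMSO and 308, 297 and 291 CPM in GSK-J4 (log2 fold change 1.17 ± 0.06, adjusted p = 6.4e-25). None of these 5 genes had overlapping groups. INHBE, an inhibin subunit, rose from a mean of 6.54 ± 1.85 to 23.8 ± 3.74 CPM and TSC22D3 from 23.3 ± 2.65 to 51.3 ± 2.31 CPM (SD, n = 3). GADD45B was the member that fell, by 0.48 on the log2 scale, from 31.2, 34.8 and 35.2 CPM in DMSO and 22.6, 24.8 and 24.6 CPM in GSK-J4.

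Genes of amino acid supply rose by smaller factors. In the list for serine, one-carbon, proline and asparagine synthesis 9 of 18 rose and 0 fell (median 0.25). CTH, which makes cysteine, was at 19.8, 16.3 and 16.4 CPM in DMSO and 34.5, 35.7 and 36.1 CPM in GSK-J4 (log2 fold change 1.01 ± 0.12, adjusted p = 1.2e-09). PSAT1, of the serine pathway, was at 198, 206 and 216 CPM in DMSO and 334, 306 and 322 CPM in GSK-J4 (log2 fold change 0.64 ± 0.06, adjusted p = 3.1e-14). ASNS, asparagine synthetase, was at 98, 89.5 and 88.7 CPM in DMSO and 134, 120.5 and 125 CPM in GSK-J4 (log2 fold change 0.45 ± 0.07, adjusted p = 8.8e-06). The 3 DMSO libraries lay below the 3 GSK-J4 libraries in each case. PCK2, PSPH, GPT2, ALDH1L2, PHGDH and MTHFD2 rose by 0.31 to 0.65 on the log2 scale. Of 15 amino acid transporters tested, 8 rose and 0 fell (median 0.26). SLC7A11, the cystine importer, was at 13.1, 16.8 and 11.4 CPM in DMSO and 42.9, 45.7 and 45.9 CPM in GSK-J4 (log2 fold change 1.68 ± 0.11, adjusted p = 1.1e-18). SLC38A2, a neutral amino acid carrier, was at 267, 263 and 266 CPM in DMSO and 533, 505 and 539 CPM in GSK-J4 (log2 fold change 0.99 ± 0.07, adjusted p = 7.9e-18). SLC7A5, the leucine carrier, was at 648, 650.5 and 638 CPM in DMSO and 1028, 992 and 993 CPM in GSK-J4 (log2 fold change 0.64 ± 0.05, adjusted p = 7.3e-17). CTH and SLC7A11 had the largest log2 fold change of their lists. SLC6A9, a glycine carrier, rose by 0.82, and SLC3A2, SLC7A1, SLC1A5 and SLC38A1 rose by 0.26 to 0.47.

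Among enzymes that charge tRNAs, calls fell on cytosolic members. Of 20 cytosolic tRNA synthetases 8 rose and 0 fell (median 0.11), and of 17 mitochondrial ones 0 rose and 0 fell (median -0.01). Of the mitochondrial ones 0 had an unadjusted p under 0.05 in edgeR's test, and DESeq2 called 0. The difference between the lists was not tested. In DMSO the cytosolic members summed to 6238 to 6339 CPM and the mitochondrial ones to 884.2 to 913.5 CPM. Small changes are harder to call at lower counts, and the part of abundance was not tested. GARS1, the glycyl enzyme, was at 584, 562 and 588 CPM in DMSO and 739.5, 705 and 712 CPM in GSK-J4 (log2 fold change 0.32 ± 0.04, adjusted p = 3.5e-07). CARS1, the cysteinyl enzyme, was at 79.8, 79.8 and 81.7 CPM in DMSO and 103, 107 and 112 CPM in GSK-J4 (log2 fold change 0.42 ± 0.06, adjusted p = 1.7e-06). The other 6 that rose (AARS1, YARS1, TARS1, SARS1, MARS1 and NARS1) did so by 0.15 to 0.28 on the log2 scale. NARS1 lost its call in all 6 fits that left out 1 library (adjusted p = 0.06 to 0.22). MARS1 lost it without replicate 2 of either group (0.054 and 0.057), SARS1 without replicate 1 of DMSO (0.069), and TARS1 without replicate 1 of GSK-J4 or replicate 3 of DMSO (0.059 and 0.05).

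The promoters of CHAC1, ATF3 and HERPUD1 are shown because each of these 3 genes rose and its window holds a letter match to the C/EBP-ATF element. ATF4 and its partners can bind that element, but binding at these matches was not measured. Each window covers a single annotated start, and which start JJN3 uses was not tested. Windows are as above (RefSeq, GRCh38.p14), with matches to TGATGNAA on either strand in capitals. CHAC1 lies at chr15:40953221-40953520 on the plus strand, ATF3 at chr1:212565157-212565456 on the plus strand and HERPUD1 at chr16:56931892-56932191 on the plus strand.
CHAC1: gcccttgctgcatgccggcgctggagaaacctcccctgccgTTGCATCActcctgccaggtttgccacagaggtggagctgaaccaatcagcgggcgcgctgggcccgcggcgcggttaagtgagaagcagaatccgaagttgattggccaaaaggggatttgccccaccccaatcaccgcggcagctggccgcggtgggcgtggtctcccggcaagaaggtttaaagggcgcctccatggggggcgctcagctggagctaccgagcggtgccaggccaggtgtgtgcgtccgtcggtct
ATF3: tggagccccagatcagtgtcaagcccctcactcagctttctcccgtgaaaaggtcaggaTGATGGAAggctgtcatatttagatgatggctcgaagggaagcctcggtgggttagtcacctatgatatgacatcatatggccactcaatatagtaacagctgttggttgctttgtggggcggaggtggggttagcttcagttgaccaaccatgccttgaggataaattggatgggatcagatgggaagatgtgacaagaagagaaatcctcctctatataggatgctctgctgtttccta
HERPUD1: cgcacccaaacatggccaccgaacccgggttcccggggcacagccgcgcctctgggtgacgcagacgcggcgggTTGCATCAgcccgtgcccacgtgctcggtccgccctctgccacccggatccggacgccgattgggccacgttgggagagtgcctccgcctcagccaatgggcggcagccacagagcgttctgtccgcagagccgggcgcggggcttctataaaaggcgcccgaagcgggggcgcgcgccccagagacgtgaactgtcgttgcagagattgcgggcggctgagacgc

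The match begins at base -209 in CHAC1, -191 in ATF3 and -176 in HERPUD1. Of higher genes with a RefSeq promoter, 14 of 156 (8.97%) held a match, among lower genes 0 of 99, among tested genes 1.64% of 9984, and among all 27305 promoters 3.67%. The other holders among higher genes were AARS1, ASNS, CARS1, FUT1, MARS1, NARS1, NCOA7, SLC38A1, SLC3A2, SLC7A1 and TARS1. These include 5 tRNA synthetases and 3 amino acid transporters. The windows of DDIT3, SESN2, STC2 and TRIB3 held no match. The AP-1 site TGANTCA was held by 5.13% of higher, 1.01% of lower and 4.22% of tested genes, and the E-box CACGTG by 9.62%, 9.09% and 10.3%. These shares are descriptions with no test.

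In the endoplasmic reticulum list 5 of 26 rose and 0 fell (median -0.02), against 1.45% and 0.927% of all genes. HERPUD1, which takes part in disposal of misfolded proteins, was at 284, 284 and 266 CPM in DMSO and 519.9, 522 and 524 CPM in GSK-J4 (log2 fold change 0.91 ± 0.05, adjusted p = 4.5e-22). ERN1, which encodes the stress sensor IRE1, was at 39.5, 47.8 and 44.9 CPM in DMSO and 85.5, 85 and 84.2 CPM in GSK-J4 (log2 fold change 0.95 ± 0.08, adjusted p = 8.3e-14). The chaperone HSPA5 (BiP), in contrast, was at 1725, 1751 and 1724 CPM in DMSO and 1683, 1703 and 1752 CPM in GSK-J4 and its groups overlapped (log2 fold change -0.02 ± 0.04, adjusted p = 0.92). EDEM1 rose by 0.37, and SEL1L and XBP1 passed at 0.21 and 0.20. XBP1 lost its call in all 6 fits that left out 1 library (adjusted p = 0.081 to 0.16), and SEL1L without replicate 1 or 2 of GSK-J4 or replicate 1 or 3 of DMSO (0.051 to 0.1), where 3 members passed.

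Some members of the heat shock, oxidative and hypoxic lists passed at this time, against 1.45% of all genes higher and 0.927% lower. Of 19 heat shock genes tested 0 rose and 2 fell (median -0.12). HSPA8, the constitutive HSP70, was at 4444, 4340.0 and 4419 CPM in DMSO and 2898, 2938 and 3067 CPM in GSK-J4 (log2 fold change -0.57 ± 0.09, adjusted p = 7.5e-06), and reads of its processed copies may be shared with it. HSPD1 fell by 0.17 and lost its call without any 1 library other than replicate 3 of GSK-J4 (adjusted p = 0.063 to 0.21). The inducible HSPA1B had 8 counts in DMSO and 7 in GSK-J4 and was not tested, and HSPA1A had 0 counts in all 6 libraries. How reads of such similar genes were assigned is not stated, so these counts do not show that the genes were not expressed.

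Of 20 NRF2 targets 3 rose and 0 fell (median 0.01): SLC7A11, which also counts above, HMOX1 and FTH1. HMOX1, which degrades haem, was at 94.1, 84.7 and 81.5 CPM in DMSO and 117, 187 and 163 CPM in GSK-J4 (log2 fold change 0.84 ± 0.12, adjusted p = 7.8e-07), with replicate 1 of GSK-J4 nearest to DMSO. FTH1, the ferritin heavy chain, was at 264, 239 and 263 CPM in DMSO and 293, 350.4 and 334 CPM in GSK-J4 (log2 fold change 0.36 ± 0.07, adjusted p = 0.0011). GCLM, a glutathione synthesis subunit, was at 132, 128 and 120.1 CPM in DMSO and 120.2, 138 and 135 CPM in GSK-J4 and overlapped (log2 fold change 0.05 ± 0.07, adjusted p = 0.83). Of 22 hypoxia and glycolysis genes 5 rose and 0 fell (median 0.16). Besides VEGFA these were KDM3A, SLC2A1, PDK1 and HK2. KDM3A, itself a Jumonji demethylase, was at 39.5, 44.4 and 46.7 CPM in DMSO and 64.8, 63.7 and 64.7 CPM in GSK-J4 (log2 fold change 0.58 ± 0.07, adjusted p = 2.7e-08). SLC2A1, a glucose carrier, was at 39, 37.4 and 37.7 CPM in DMSO and 54.8, 61.2 and 53.6 CPM in GSK-J4 (log2 fold change 0.57 ± 0.09, adjusted p = 1.5e-06).

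**Figure D3:**
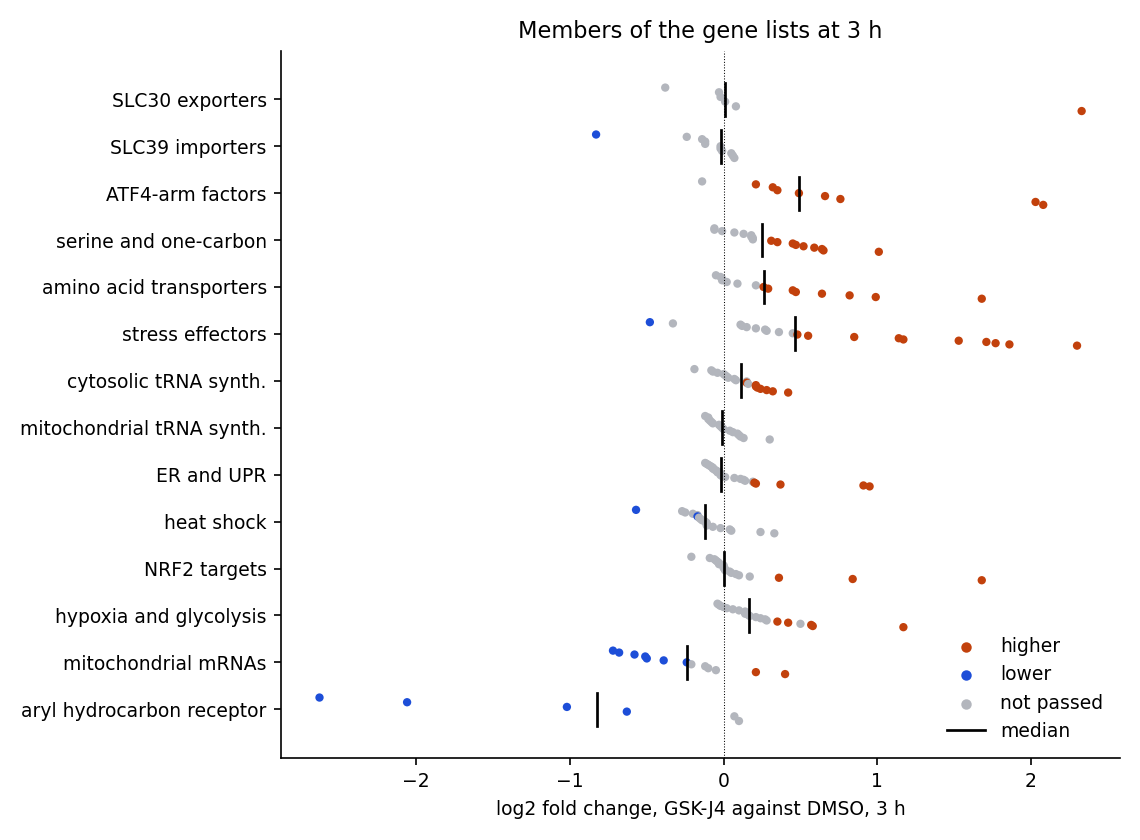
Log2 fold change of GSK-J4 against DMSO at 3 h (horizontal axis) for the tested members of 14 gene lists, coloured by whether they passed at an adjusted p under 0.05, with the list median as a line; SLC30A2 counts in its list's median and is not drawn because its fitted value depends on the prior count. Rises gather in the ATF4-arm, amino acid and stress effector lists, and falls in the mitochondrial mRNAs and the aryl hydrocarbon receptor list.

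Mitochondrially encoded mRNAs moved in both directions. Of 13, 7 fell and 2 rose (median -0.24). MT-CO3, a cytochrome oxidase subunit, was at 2787, 2801 and 2811 CPM in DMSO and 1840.0, 1668 and 1737 CPM in GSK-J4 (log2 fold change -0.68 ± 0.05, adjusted p = 1.8e-15). MT-ATP6, an ATP synthase subunit, was at 2563, 2430.0 and 2459 CPM in DMSO and 1774, 1730.0 and 1733 CPM in GSK-J4 (log2 fold change -0.51 ± 0.05, adjusted p = 4.2e-13). MT-ND3, MT-ND2, MT-CO2, MT-ATP8 and MT-CO1 fell by 0.24 to 0.72 on the log2 scale. MT-ND6, the mRNA of the light strand, was at 502, 463 and 432 CPM in DMSO and 597, 644 and 603 CPM in GSK-J4 (log2 fold change 0.40 ± 0.06, adjusted p = 2.7e-06). No source used here states the strand setting of the counting, so reads of MT-ND6 and antisense reads of its heavy-strand partners cannot be told apart. MT-ND5 passed at 0.21 and lost its call in all 6 fits that left out 1 library (adjusted p = 0.069 to 0.23), and MT-CO1 lost its call without replicate 2 of GSK-J4 (0.057).

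The list with the lowest median was that of the aryl hydrocarbon receptor, a ligand-activated factor that pairs with ARNT, and its targets. Of 6 tested, 4 fell and 0 rose (median -0.83), and the 4 are targets of the receptor. TIPARP, an ADP-ribosyltransferase that feeds back on the receptor, was at 135, 136 and 121 CPM in DMSO and 67.1, 61.1 and 65.7 CPM in GSK-J4 (log2 fold change -1.02 ± 0.06, adjusted p = 2.4e-20). AHRR, the receptor's repressor, was at 32.4, 37.8 and 37.5 CPM in DMSO and 24.3, 21.5 and 23.4 CPM in GSK-J4 (log2 fold change -0.63 ± 0.11, adjusted p = 5.9e-05). Both groups of 3 stood apart for each gene.

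CYP1A1, the receptor's classical target among detoxifying enzymes, was at 1.23, 1.15 and 2.02 CPM in DMSO and 0.241, 0.197 and 0.205 CPM in GSK-J4 (log2 fold change -2.63 ± 0.63, adjusted p = 0.0069). Each GSK-J4 value was below the CPM of 3 counts in its library, and the group held 6 counts. Without replicate 3 of DMSO the log2 fold change of CYP1A1 was -2.38 (adjusted p = 0.073). CYP1B1, a related enzyme, was at 2.46, 1.65 and 1.8 CPM in DMSO and 0.362, 0.395 and 0.616 CPM in GSK-J4 (log2 fold change -2.06 ± 0.49, adjusted p = 0.0061), and without replicate 1 of DMSO its log2 fold change was -1.85 (adjusted p = 0.11). DESeq2 called TIPARP and AHRR and gave no adjusted p for CYP1A1 and CYP1B1. AHR was at 53.9, 52.1 and 48.7 CPM in DMSO and 50.8, 55.1 and 57.3 CPM in GSK-J4 (log2 fold change 0.07 ± 0.09, adjusted p = 0.79) and ARNT at 107, 109 and 107 CPM in DMSO and 117, 116 and 113 CPM in GSK-J4 (log2 fold change 0.10 ± 0.06, adjusted p = 0.54). The core TNGCGTG, searched on both strands and chosen after the data were seen, was in 1 of 5 promoters of the list, in 12.1% of lower and in 7.56% of tested genes.

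**Figure D4:**
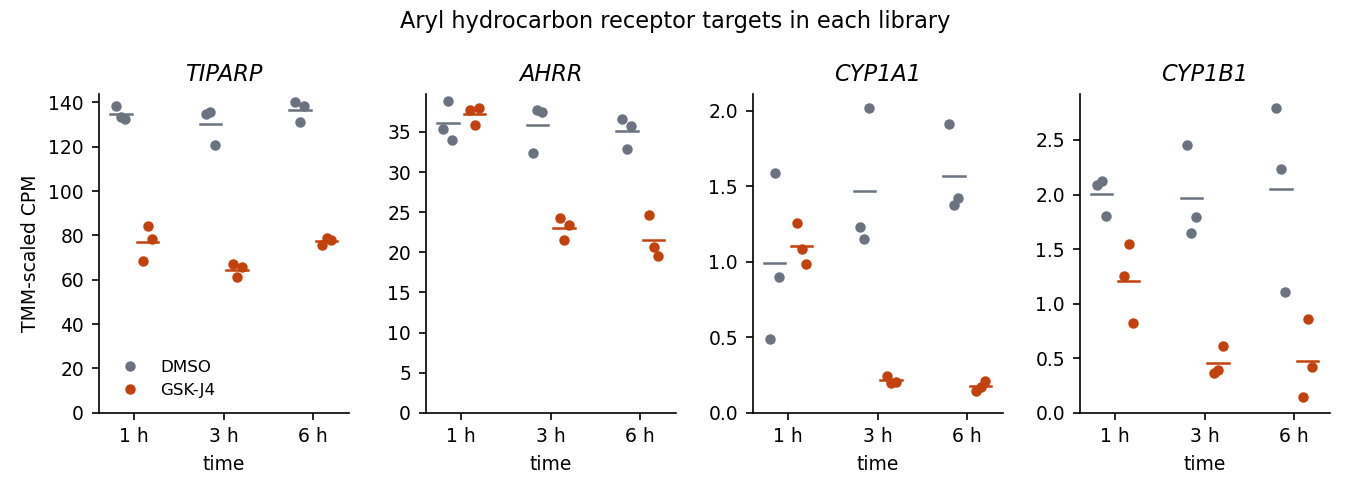
TMM-scaled CPM (vertical axes from 0) of TIPARP, AHRR, CYP1A1 and CYP1B1 in each DMSO and GSK-J4 library at 1, 3 and 6 h; lines are group means. The groups of TIPARP and CYP1B1 do not overlap at any of the 3 times, though CYP1B1 did not pass at 1 h, and those of AHRR and CYP1A1 overlap at 1 h only.

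GPR15, LRRN3, BHLHE41, RGS20, C11orf96 and RPL38P4 were among the 12 largest falls. GPR15, a homing receptor of lymphocytes, was at 30.4, 30.2 and 32.8 CPM in DMSO and 12.8, 15.5 and 15.2 CPM in GSK-J4 (log2 fold change -1.09 ± 0.13, adjusted p = 2.1e-09). LRRN3, a leucine-rich membrane protein, was at 28.4, 25.9 and 27.4 CPM in DMSO and 13.3, 14.1 and 15.9 CPM in GSK-J4 (log2 fold change -0.91 ± 0.12, adjusted p = 6.6e-08). F2RL3, the thrombin receptor PAR4, named here after its values were seen, was at 66, 60.5 and 58.4 CPM in DMSO and 42.4, 39.2 and 37.7 CPM in GSK-J4 (log2 fold change -0.64 ± 0.08, adjusted p = 3.7e-08). As background, GPR15, LRRN3, F2RL3 and AHRR are all known as genes whose expression or methylation in blood differs with smoking. No list of such genes was examined, so members that did not fall are not shown, and a shared cause was not tested. BHLHE41, a clock repressor, was at 113, 121 and 114 CPM in DMSO and 70.5, 65.9 and 61.7 CPM in GSK-J4 (log2 fold change -0.82 ± 0.07, adjusted p = 3.2e-13). RGS20, a regulator of G protein signalling, was at 31.9, 34 and 39.3 CPM in DMSO and 20.5, 18.4 and 23.1 CPM in GSK-J4 (log2 fold change -0.75 ± 0.11, adjusted p = 2.4e-06), and C11orf96 was at 6.45, 6.43 and 8.08 CPM in DMSO and 2.54, 2.86 and 3.18 CPM in GSK-J4 (log2 fold change -1.26 ± 0.23, adjusted p = 9.1e-05). The ribosomal pseudogene RPL38P4 fell by 1.33 on the log2 scale, with reads that may come from its parent gene.

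Falls at low levels were less stable. TGFBI, a secreted matrix protein, was at 2.76, 4.45 and 7.18 CPM in DMSO and 1.21, 1.38 and 1.85 CPM in GSK-J4 (log2 fold change -1.61 ± 0.41, adjusted p = 0.013). Without replicate 3 of DMSO its log2 fold change was -1.26 (adjusted p = 0.21), and without replicate 1 or 2 of GSK-J4 it also missed the threshold (adjusted p = 0.067). Replicate 3 of DMSO also held the highest values of the fibroblast collagens: COL1A1 was at 7.68, 12.4 and 29.9 CPM in DMSO and 4.59, 8.58 and 10.2 CPM in GSK-J4, and markers of other cell types summed to 73.2 to 136 CPM in DMSO and 66.8 to 79.8 CPM in GSK-J4 libraries. Their part in the TGFBI value was not tested. MYOF, VWA1 and the mitochondrial tRNA MT-TL2 fell by 1.03, 0.95 and 1.2. MYOF lost its call without replicate 1 of GSK-J4 or replicate 1 or 3 of DMSO (adjusted p = 0.073 to 0.23). VWA1 lost it without replicate 1 or 2 of GSK-J4 or 2 or 3 of DMSO (0.069 to 0.19), and MT-TL2 without replicate 2 of either group (0.14 and 0.16).

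Some signalling and identity genes of the line changed. BAMBI, a decoy receptor of TGF-beta signalling, was at 25, 19.8 and 23.8 CPM in DMSO and 79, 76.5 and 76.7 CPM in GSK-J4 (log2 fold change 1.76 ± 0.11, adjusted p = 3e-21). RGS16, which shortens G protein signals, was at 381, 361 and 353 CPM in DMSO and 825, 798 and 787 CPM in GSK-J4 (log2 fold change 1.14 ± 0.07, adjusted p = 3e-21). GRHL1, an epithelial transcription factor, was at 5.07, 4.62 and 4.94 CPM in DMSO and 12.4, 12.9 and 18.1 CPM in GSK-J4 (log2 fold change 1.57 ± 0.18, adjusted p = 3.5e-10). GPR18, a lipid-sensing receptor, rose from low counts and was at 0.154, 0.33 and 0.673 CPM in DMSO and 2.29, 2.96 and 1.54 CPM in GSK-J4 (log2 fold change 2.62 ± 0.53, adjusted p = 0.00065). DUSP6, a feedback phosphatase of ERK, was at 52.4, 45.8 and 48 CPM in DMSO and 34.9, 35.6 and 38.7 CPM in GSK-J4 (log2 fold change -0.42 ± 0.08, adjusted p = 0.00053). Of 11 ERK feedback genes tested, 2 fell (0.927% of all genes), 0 rose and 9 did not pass, with a list median of 0.15. Among 16 plasma cell identity genes 3 rose and 2 fell (1.45% and 0.927% of all genes), with log2 fold changes of -0.29 to 0.51. When 1 library was left out, 0 to 2 were higher (0 without replicate 1 of either group) and 0 or 1 lower (1 without replicate 1 of GSK-J4). IRF4, the myeloma survival factor, was at 806, 791 and 822 CPM in DMSO and 868, 799 and 779 CPM in GSK-J4 and overlapped (log2 fold change 0.02 ± 0.06, adjusted p = 0.95). MYC was at 1010.0, 1050.0 and 1057 CPM in DMSO and 861, 909 and 909 CPM in GSK-J4; the groups did not overlap, and the gene did not pass (log2 fold change -0.22 ± 0.09, adjusted p = 0.23).

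In the BCL2 family 2 of 14 rose and 1 fell, against 1.45% and 0.927% of all genes. PMAIP1 (NOXA), a pro-death BH3 protein, was at 105, 103 and 100.4 CPM in DMSO and 179.8, 169 and 177 CPM in GSK-J4 (log2 fold change 0.77 ± 0.07, adjusted p = 1.2e-12). BMF, another BH3 protein, was at 53.4, 57.5 and 66.5 CPM in DMSO and 38.1, 45.9 and 41.8 CPM in GSK-J4 (log2 fold change -0.48 ± 0.08, adjusted p = 9.8e-06). BBC3 (PUMA), the second rise, passed at 0.56 (adjusted p = 0.041) and lost its call without replicate 2 or 3 of either group (adjusted p = 0.14 to 0.32). The targets of the compound were measured as well. KDM6A was at 23, 30.2 and 27.8 CPM in DMSO and 31, 33.9 and 34.6 CPM in GSK-J4 and did not pass (log2 fold change 0.31 ± 0.10, adjusted p = 0.1). KDM6B was at 16.4, 15.8 and 15.5 CPM in DMSO and 18.5, 24 and 25.5 CPM in GSK-J4 (log2 fold change 0.51 ± 0.13, adjusted p = 0.012), and its call was lost without replicate 2 or 3 of GSK-J4 or of DMSO (adjusted p = 0.059 to 0.13). None of the other 10 enzymes and subunits of H3K27 methylation or KDM5 passed. At this time 0 of 20 S phase genes, 0 of 21 G2/M genes, 0 of 10 genes of the MYC network, 0 of 14 p53 targets and 0 of 11 interferon-stimulated genes passed, and in ribosome biogenesis 1 of 23 fell (RRS1, by 0.26, lost without GSK-J4 replicate 3 or DMSO replicate 1, adjusted p = 0.058 to 0.19). In edgeR's test 6 of these S phase genes, 7 G2/M genes, 2 MYC network genes, 4 p53 targets and 1 interferon-stimulated gene had an unadjusted p under 0.05, and DESeq2 called 0 in each list. When only the 6 libraries were fitted, 7 S phase and 6 G2/M genes were lower and 2 p53 targets higher.

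Where the effect at 3 h stood between those at 1 h and 6 h was tested with each time's own DMSO libraries. The effect differed between 1 h and 3 h for 85 genes (0.588%), 63 with a more positive and 22 with a more negative effect at 3 h, and between 3 h and 6 h for 530 genes (3.67%), 253 more positive and 277 more negative at 6 h. Without replicate 3 of DMSO at 3 h or replicate 2 of GSK-J4 at 1 h, 14 and 13 effects were more negative at 3 h in place of 22. The 2 tests share the 3 h libraries. MT1X, MT2A and MT1G had passed at 1 h. MT1X was higher then, with a log2 fold change of 2.34, and reached 6.74 at 6 h; its effect grew by 4.0 ± 0.25 from 1 h to 3 h (adjusted p = 3.7e-19), while the difference of 0.40 ± 0.27 from 3 h to 6 h did not pass. MT2A and MT1G grew by 4.86 ± 0.48 (adjusted p = 2.8e-11) and 7.39 ± 0.60 (adjusted p = 1.3e-14). Leaving out replicate 1 of DMSO at 1 h gave 4.34 for MT1G, which still passed. MT1H and MT1F passed too (adjusted p = 5.5e-12 and 0.018), without a reliable size because their DMSO counts are near 0. MT1H lost the call without replicate 1 of DMSO at 1 h (adjusted p = 0.29), and MT1F without that library or replicate 1 or 2 of DMSO at 3 h (0.059 to 0.71). SLC30A1 peaked at 3 h among these times, with log2 fold changes of 1.38, 2.33 and 1.91. Its effect grew by 0.95 ± 0.11 (adjusted p = 2.5e-09) and then shrank by 0.42 ± 0.11 (adjusted p = 0.013). The later difference was lost without replicate 1 of DMSO at 3 h or replicate 3 of DMSO at 6 h (adjusted p = 0.093 and 0.19).

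Stress genes of the ATF4 arm changed between 1 h and 3 h. At 1 h the log2 fold changes of CHAC1, DDIT3, ATF3 and SESN2 lay between -0.07 and 0.40 and did not pass. By 3 h their effects had grown by 1.90 ± 0.24 for CHAC1 (adjusted p = 6.9e-08), 1.70 ± 0.24 for DDIT3 (adjusted p = 1.4e-06), 1.97 ± 0.24 for ATF3 (adjusted p = 2.8e-08) and 1.78 ± 0.15 for SESN2 (adjusted p = 2.1e-14). Growth from 3 h to 6 h passed for CHAC1, by 0.89 ± 0.21 (adjusted p = 0.0045), for SESN2, by 0.99 ± 0.13 (adjusted p = 1.6e-07), and for TRIB3, by 0.86 ± 0.09 (adjusted p = 9.4e-11). Leaving out replicate 3 of DMSO at 6 h gave 0.54 for CHAC1 (adjusted p = 0.066). ATF3 (0.20 ± 0.22) and DDIT3 (0.53 ± 0.23) did not pass in this second interval.

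Members of the amino acid lists gained in both intervals, against 0.436% and 1.75% of all genes with a more positive effect. Because the lists were chosen with earlier results of these data known, the contrast with all genes is a description and not a test. Of 18 genes of serine and related synthesis 8 had a more positive effect at 3 h than at 1 h and 12 at 6 h than at 3 h, of 15 transporters 7 and 9, of 20 stress effectors 7 and 15, and of 20 cytosolic tRNA synthetases 3 and 10. PSAT1 had log2 fold changes of -0.05, 0.64 and 1.92 at the 3 times and a growth of 1.28 ± 0.08 from 3 h to 6 h (adjusted p = 4.1e-20). Ribosome biogenesis, with 1 fall at 3 h, had 11 of 23 members with a more negative effect at 6 h, against 1.92% of all genes. MYC moved by -0.58 ± 0.13 (adjusted p = 0.0018).

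**Figure D5:**
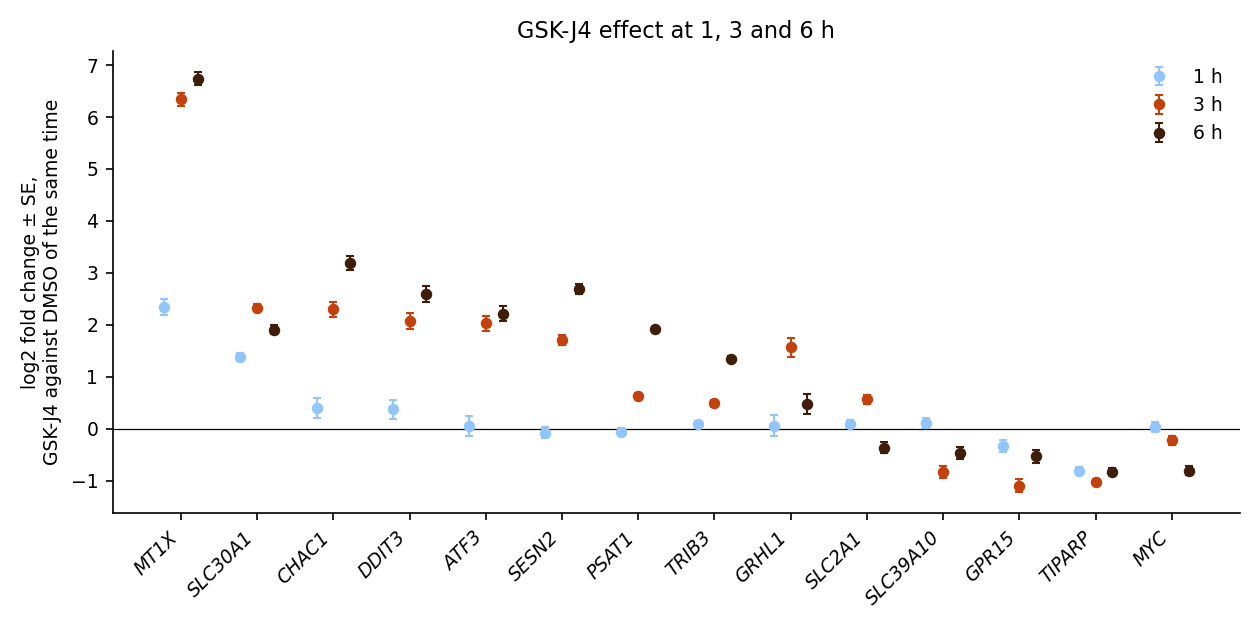
Log2 fold change ± SE of GSK-J4 against DMSO of the same time at 1, 3 and 6 h for 14 genes. MT1X, SLC30A1 and TIPARP differ from 0 at 1 h, the ATF4-arm genes from CHAC1 to SESN2 appear at 3 h, and PSAT1 and TRIB3 are larger at 6 h than at 3 h.

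Some effects shrank or turned between 3 h and 6 h, and falls appeared at different times. GRHL1 had log2 fold changes of 0.06, 1.57 and 0.48, and its effect shrank by 1.09 ± 0.27 from 3 h to 6 h (adjusted p = 0.0082). SLC2A1 had 0.09, 0.57 and -0.36, a change of -0.94 ± 0.13 (adjusted p = 5.3e-07). SLC39A10 was not lower at 1 h (0.11), and its effect moved by -0.94 ± 0.15 by 3 h (adjusted p = 3.1e-05). RGS20 moved by -0.73 ± 0.15 (adjusted p = 0.0038). GPR15 moved by -0.75 ± 0.17 (adjusted p = 0.012), a call lost without replicate 1 of GSK-J4 at 3 h or replicate 3 of GSK-J4 at 1 h (0.07 and 0.083). TIPARP had log2 fold changes of -0.80 at 1 h, -1.02 at 3 h and -0.82 at 6 h, and neither difference between times passed (adjusted p = 0.62 and 0.27). AHRR, at 0.04, -0.63 and -0.69, moved by -0.67 ± 0.15 from 1 h to 3 h (adjusted p = 0.013), a call lost without replicate 2 of GSK-J4 or replicate 2 or 3 of DMSO at 3 h (0.051 to 0.076).

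By size, GRB10 and CCNG2 had among the largest gains from 3 h to 6 h. GRB10, an adaptor of insulin receptor signalling, gained 2.59 ± 0.42 (adjusted p = 1.6e-05), and CCNG2, an unusual cyclin, 2.23 ± 0.47 (adjusted p = 0.0013). Neither passed at 3 h, where their log2 fold changes were 0.62 and -0.53.

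Against ZnSO4 at the same time, a direct test of 2 treated groups that leaves out DMSO, 1462 genes differed (10.1%), 577 higher (3.99%) and 885 lower (6.12%) in GSK-J4. With library totals in place of TMM factors, 1270 were higher and 638 lower, so the split between the directions changed with the scaling. Without replicate 2 or 3 of ZnSO4, 379 and 372 were higher. The 3 GSK-J4 libraries are those of the comparison with DMSO, so the comparisons are not independent. All 8 metallothioneins tested were lower in GSK-J4 than in ZnSO4. MT1X had a mean of 577 ± 22.8 CPM in GSK-J4 and 1272 ± 112 in ZnSO4 (SD, n = 3), a log2 difference of -1.14 ± 0.08 (adjusted p = 2e-19). SLC30A1 differed by -0.70 ± 0.06 (adjusted p = 3.5e-14). Heat shock and oxidative genes differed widely: 18 of 19 heat shock genes and 15 of 20 NRF2 targets were lower in GSK-J4. HSPA6, an inducible HSP70, differed by -5.06 ± 0.22 (adjusted p = 2e-28), HMOX1 by -3.94 ± 0.11 (adjusted p = 5.1e-38) and the co-chaperone BAG3 by -2.95 ± 0.13 (adjusted p = 2.1e-28). Immediate early genes were lower in 13 of 18. ZnSO4 against DMSO gave 18 of 19 heat shock genes, 13 of 20 NRF2 targets and 15 of 18 immediate early genes higher. For GSK-J4 against DMSO, 2 heat shock genes were lower, 3 NRF2 targets higher and 0 immediate early genes called. HSPA6 and BAG3 did not pass for GSK-J4 against DMSO, at log2 fold changes of 0.33 and -0.25.

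Stress lists had members on both sides. Of the 9 ATF4-arm factors 3 were higher and 1 lower in GSK-J4 than in ZnSO4, and of the 20 stress effectors 7 were higher and 5 lower. Over all genes 3.99% were higher and 6.12% lower in this comparison. CHAC1 had a mean of 246 ± 7.48 CPM in GSK-J4 and 77 ± 9.9 in ZnSO4, a log2 difference of 1.67 ± 0.13 (adjusted p = 7.7e-17). BAMBI differed by 1.40 ± 0.10 (adjusted p = 5.3e-19) and DDIT3 by 1.34 ± 0.12 (adjusted p = 9.9e-14). Of 26 endoplasmic reticulum genes 6 were higher and 1 lower, with HERPUD1 at 0.73 ± 0.05 (adjusted p = 1.7e-18) and ERN1 at 0.64 ± 0.08 (adjusted p = 2e-09). ATF3, SLC38A2 and TRIB3, in contrast, did not pass, with log2 differences of -0.19 ± 0.10, -0.05 ± 0.07 and 0.07 ± 0.06. IRF4 differed by 0.71 ± 0.06 (adjusted p = 6.6e-15), with 815 ± 46.6 CPM in GSK-J4 and 499 ± 45.9 in ZnSO4. Of the aryl hydrocarbon receptor targets, TIPARP differed by -1.10 ± 0.06 (adjusted p = 1.1e-22), AHRR by -0.85 ± 0.10 (adjusted p = 3e-09) and CYP1A1 by -3.01 ± 0.56 (adjusted p = 6.7e-05). CYP1B1 did not pass (-1.34 ± 0.51, adjusted p = 0.087). CCR2 (1.71 ± 0.44) and WNT16 (1.47 ± 0.37), 2 of the largest rises, had group means below 3 CPM. CCR2 lost its call without replicate 2 of GSK-J4 or replicate 2 or 3 of ZnSO4 (adjusted p = 0.052 to 0.1).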

How the data were processed

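RNA of JJN3 cells was sequenced from 39 libraries in 13 groups of 3 after library preparation with a NEBNext Ultra kit, per the labels' protocols. The authors deposited whole-number counts per gene. The submitters' processing notes name hg19 and HISAT2 2.1.0, while no source used here states the counting tool, annotation or strand setting. Symbols came from a name table (51996 of 57773 identifiers) and GENCODE annotation (342), and 5435 had none.

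The counts were fitted with edgeR 4.0.16 in R 4.3.3 (TMM, low genes removed by filterByExpr at min.count 10, glmQLFit with 1 coefficient per group over all 39 libraries, glmQLFTest), which left 14460 genes. A gene passed at an adjusted p under 0.05 (Benjamini-Hochberg). CPM are TMM-scaled, ± after a log2 fold change is its SE, and ± after a mean is the SD. Libraries held 4347745 to 10695671 counts, and 3 counts in 1 library are 0.281 to 0.69 CPM. The floor used for fold changes is 3 counts over a group. Replicates within the DMSO and GSK-J4 groups at 3 h differed by more than sampling noise (chi-square per gene 1.25 to 1.63). The script was tested on simulated counts.

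Members and lists were chosen with earlier results of these data known. Genes were named by a rule: the 12 largest rises and 12 largest falls at 3 h with a mean log2 CPM of at least 1 and no overlap, zinc genes, up to 4 members per list by smallest p, and the 6 largest in each direction of the other comparisons. Further list members that passed were named after their values were seen, and counts in the text for lists come from the same fit. Alternatives were other scaling, no filter, DESeq2 1.42.0, fewer libraries and leaving out each library. Promoter sequences are from RefSeq (GRCh38.p14), and the motif TNGCGTG was added after the data were seen.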

Additional observations from a re-analysis of the deposited data

Results flagged for a closer look

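The effect of GSK-J4 against DMSO differed between times by a test of the difference itself (edgeR's quasi-likelihood test on the difference of the effects, Benjamini-Hochberg adjustment over all genes) for the genes below. Values are differences of log2 fold changes with their SE. From 1 h to 3 h the effect became more positive for the zinc and stress genes MT1X (4.0 ± 0.25), MT2A (4.86 ± 0.48), MT1G (7.39 ± 0.60), SLC30A1 (0.95 ± 0.11), CHAC1 (1.90 ± 0.24), DDIT3 (1.70 ± 0.24), ATF3 (1.97 ± 0.24) and SESN2 (1.78 ± 0.15). It became more negative for SLC39A10 (-0.94 ± 0.15), RGS20 (-0.73 ± 0.15), GPR15 (-0.75 ± 0.17) and AHRR (-0.67 ± 0.15). From 3 h to 6 h it became more positive for CHAC1 (0.89 ± 0.21), SESN2 (0.99 ± 0.13), TRIB3 (0.86 ± 0.09), PSAT1 (1.28 ± 0.08), GRB10 (2.59 ± 0.42) and CCNG2 (2.23 ± 0.47). It became more negative for SLC30A1 (-0.42 ± 0.11), MYC (-0.58 ± 0.13), GRHL1 (-1.09 ± 0.27) and SLC2A1 (-0.94 ± 0.13). The metallothioneins have few DMSO counts, and the MT1G value was 4.34 without replicate 1 of DMSO at 1 h. The calls of GPR15 and AHRR from 1 h to 3 h, and of SLC30A1 and CHAC1 from 3 h to 6 h, were lost when single libraries were left out, as given with those genes.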

How the results depend on the processing

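Of 102 named genes called at 3 h, 21 lost the call under at least 1 of 12 alternatives and 81 under none. An alternative that gave a gene no value or no adjusted p was not counted as a loss. Fitting only the groups compared gave 1072 genes at 3 h (495 higher, 577 lower), 917 higher in GSK-J4 than in ZnSO4, 173 genes from 1 h to 3 h (106 more positive, 67 more negative) and 920 from 3 h to 6 h (425 and 495). The cause was not tested. Library totals gave 1270 genes higher than in ZnSO4. With 1 library left out, the counts at 3 h were 246 to 268 (151 to 169 higher, 90 to 106 lower). Against ZnSO4 they were 979 to 1331 (372 to 533 higher, 607 to 798 lower), from 1 h to 3 h 63 to 81 (48 to 65 more positive, 13 to 22 more negative) and from 3 h to 6 h 384 to 531 (178 to 248 and 193 to 283). Signs of values that had not passed turned for HSPA5 (0 with library totals, 0.01 with no filter), IRF4 (-0.03 without replicate 1 of GSK-J4, range -0.03 to 0.05), SLC38A2 against ZnSO4 (0.01 with library totals, -0.11 to 0.02 with 1 library left out) and ATF3 from 3 h to 6 h (-0.01 without replicate 3 of DMSO at 6 h, range -0.01 to 0.32). No paired analysis was possible because the labels give no replicate numbers or pairing. Depth limits genes under about 1 CPM, such as CYP1A1.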
